A study of Rattus norvegicus with 9 samples.

Results

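The collagen hydroxylation, folding and crosslinking enzymes are 10 genes, found by name in the expression table of rat knee cartilage: the prolyl hydroxylase subunits P4ha1 and P4ha2, the lysyl hydroxylases Plod1, Plod2 and Plod3, the procollagen chaperone Serpinh1, and the lysyl oxidases Lox, Loxl1, Loxl2 and Loxl3. They are 10 of the 32043 genes listed. Of these, 10 of 10 passed the filter of a mean of at least 0.5 FPKM, which left 13898 genes to test. FPKM are fragments scaled by gene length and by a size factor for each library. RNA sequencing covered 9 libraries, 3 each from the control, model, and SYD groups of male Sprague–Dawley rats bought at 8 weeks of age. Control rats had the knee joint capsule opened and sutured, with no further joint surgery. Model rats had knee osteoarthritis (KOA) induced by the modified Hulth operation, in which ligaments are cut and the medial meniscus is taken out, with 4 weeks of daily forced activity. SYD rats had the same operation and then SYD, a decoction of 7 plant drugs, by gavage for 4 weeks, and the study names the sequenced animals as its high-dose group, SYD-H, while the labels call the group syd with no dose. The labels and the column headings also carry the library names CXTB1 to CXTB3 for the SYD samples, which the sources do not explain. The study also had a celecoxib group, abbreviated CXB, and the grouping here follows the label syd. No transgene or deletion is described for any group, and neither the labels nor the study's methods say whether a library held 1 rat or several, so the p-values below measure the spread between libraries only.

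Collagen chains are modified inside the endoplasmic reticulum (ER) while they are being made. Prolyl 4-hydroxylases give the triple helix its heat stability, lysyl hydroxylases make the hydroxylysines that later carry sugars and crosslinks, and Serpinh1 (Hsp47) binds the folded helix until it leaves the ER. After secretion, the copper-dependent lysyl oxidases oxidise lysine and hydroxylysine side chains, and the aldehydes formed then crosslink neighbouring collagen or elastin molecules. In cartilage the main client is type II collagen, and in bone it is type I collagen.

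Whole reads recovered from the table came to 14914121 to 19510537 per library. Mitochondrial genes took 4.05% to 4.86% of these reads in the control group, 39.5% to 90.7% in the model group, and 23.7% to 72.7% in the SYD group, so that 1744769, 11106680, and 3611325 reads were left for all other genes in model libraries 1, 2, and 3. The label of cartilage was checked against marker genes. The summed FPKM of 12 chondrocyte markers was 11157, 460, and 5753 in control libraries 1, 2, and 3, 153 to 790 in the model group, and 145 to 1220 in the SYD group, with 2 to 3 of the 12 markers at 0 in each model library and 1 to 2 in each SYD library. The summed FPKM of 8 osteoblast and osteocyte markers was 3013 to 5992 in the control, 1262 to 7481 in the model, and 7808 to 10520 in the SYD group, and was higher than the chondrocyte sum in 7 of 9 libraries. Some of these markers are fibrillar collagens: Col2a1 and Col11a2 in the chondrocyte list, and Col1a1 in the osteoblast and osteocyte list. Summed markers of erythroid cells peaked within each group at 16261 FPKM (control library 2), 42451 FPKM (model library 3), and 13572 FPKM (SYD library 3). Model library 1 followed closely with 38181 FPKM, whereas model library 2 had only 296 FPKM. Control libraries 1 and 3 stood at 6540 and 7949 FPKM, SYD libraries 1 and 2 at 1311 and 1874 FPKM. The extraction text of the labels mentions retina, and 6 photoreceptor markers summed to at most 3.50 FPKM in any library. Fewer cells of a type and less RNA per cell cannot be told apart in these bulk libraries.

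P4ha1 and P4ha2 encode alternative catalytic alpha subunits of collagen prolyl 4-hydroxylase, which pair with the beta subunit P4hb. P4ha1 (chromosome 20, 27302141 to 27352786, plus strand, in the coordinates of the authors' table, whose build is not named) was at 31.8, 5.54, and 18.7 FPKM in control libraries 1, 2, and 3. It was at 8.27, 25.6, and 3.99 FPKM in model libraries 1, 2, and 3, and at 25.5, 27.9, and 16.4 FPKM in the SYD libraries. Control library 2 and model libraries 1 and 3 were the low ones, and the 3 groups overlapped. P4ha2 (chromosome 10, 38243139 to 38287314, plus strand) had 25.5, 2.08, and 13.1 FPKM in control libraries 1, 2, and 3 and 19.3, 17.9, and 8.35 FPKM in the SYD group. In the model libraries it was at 14.5, 18.7, and 0.0593 FPKM, and the last value stood for 1 read. The groups overlapped here too, and model library 3 had almost no signal. The third alpha subunit, P4ha3, was low, between 0 and 4.33 FPKM over the 9 libraries, with a mean of 2.14 FPKM.

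P4ha1, P4ha2 and Plod2 are known targets of hypoxia-inducible factors, so their promoters were searched for the core letters that these factors bind. Promoters came from RefSeq (build GRCr8), where 8 of the 10 genes were matched, and the 250 bases before the start were read on both strands. ACGTG was present in 16.6% and GCGTG in 25.9% of the 33469 promoters of that length. The P4ha2 promoter held 2 matches to ACGTG and 3 to GCGTG, Plod2 held 2 and 2, and P4ha1 held 0 and 2. Of the other matched genes, Loxl3, Plod1, and Plod3 held 0 and 1 each, and Loxl1 and Serpinh1 held 0 of both. The P4ha2 window, chr10:38743644-38743893 on the plus strand, and the Plod2 window, chr8:101964068-101964317 on the plus strand, are shown because they held the most matches among the 8 genes, with every match in capitals (CACGT and CACGC are the same letters read on the other strand). G and C made up 72.4% of the P4ha2 window and 74.8% of the Plod2 window. A match describes the letters only.
P4ha2: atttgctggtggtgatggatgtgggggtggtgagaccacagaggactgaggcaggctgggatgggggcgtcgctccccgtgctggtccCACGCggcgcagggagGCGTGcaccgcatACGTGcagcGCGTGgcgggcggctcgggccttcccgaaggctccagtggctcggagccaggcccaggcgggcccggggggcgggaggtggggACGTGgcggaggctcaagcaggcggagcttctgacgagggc
Plod2: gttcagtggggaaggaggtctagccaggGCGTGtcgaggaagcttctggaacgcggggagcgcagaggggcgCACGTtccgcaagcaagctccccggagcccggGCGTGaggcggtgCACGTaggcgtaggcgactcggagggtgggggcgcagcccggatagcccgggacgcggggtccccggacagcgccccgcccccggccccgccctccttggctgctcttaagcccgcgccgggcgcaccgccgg

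The 3 lysyl hydroxylases differ in their substrate positions: Plod1 acts mostly on lysines of the helix, Plod2 on those of the telopeptides at the chain ends, and Plod3 also adds sugars. Plod2 (chromosome 8, 93084513 to 93167255, plus strand) was at 95.2, 20.4, and 62.0 FPKM in the control libraries, 23.5, 74.1, and 13.1 FPKM in the model libraries, and 130, 81.9, and 58.2 FPKM in the SYD libraries. It was the most abundant lysyl hydroxylase in all 9 libraries, and its lowest SYD value lay below 1 model value and 2 control values. Plod1 (chromosome 5, 158340490 to 158367620, minus strand) was at 11.5, 3.20, and 8.27 FPKM in the control, 3.14, 8.96, and 3.83 FPKM in the model, and 13.8, 12.05, and 3.25 FPKM in the SYD libraries. Plod3 (chromosome 12, 19676386 to 19686960, minus strand) was at 18.6, 7.003, and 10.7 FPKM in the control, 6.24, 15.4, and 9.15 FPKM in the model, and 20.3, 19.7, and 9.91 FPKM in the SYD libraries. Both genes overlapped between the groups, and SYD library 3 was the lowest SYD library for each.

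Serpinh1 encodes Hsp47, a heat shock protein of the ER that is dedicated to collagen. The gene (chromosome 1, 153643510 to 153650801, minus strand) had the highest level of the 10 in every library, between 51.3% and 65.9% of their summed FPKM. It was at 407, 80.3, and 213 FPKM in the control, 105, 344, and 99.7 FPKM in the model, and 306, 411, and 231 FPKM in the SYD libraries. SYD library 3 was the lowest of its group, yet it stood above 2 of 3 control and 2 of 3 model libraries. In the control group, the mean of Serpinh1 was at percentile 99.3 of the tested genes and that of Plod2 at percentile 97.3. As Serpinh1 is known to be induced by heat shock, its promoter is shown with the one match to the heat shock element core GAANNTTC in capitals, letters that read the same on both strands and that 7.23% of promoters held (GRCr8, chr1:163062977-163063226, minus strand). Plod1 and Plod2 also held 1 match each, and the other 5 of the 8 windows held none.
Serpinh1: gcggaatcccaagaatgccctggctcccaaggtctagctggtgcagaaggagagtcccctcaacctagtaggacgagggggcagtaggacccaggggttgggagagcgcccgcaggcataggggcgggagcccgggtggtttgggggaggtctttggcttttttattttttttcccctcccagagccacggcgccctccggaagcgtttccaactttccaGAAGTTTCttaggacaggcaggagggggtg

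Among the lysyl oxidases, Lox is the main enzyme of collagen and elastin crosslinking, Loxl1 is needed for elastic fibre upkeep, and Loxl2 acts on type IV collagen among other substrates. Loxl1 (chromosome 8, 58692593 to 58716356, minus strand) was at 10.1, 4.26, and 8.26 FPKM in the control libraries, 6.96, 15.3, and 10.3 FPKM in the model libraries, and 18.8, 19.5, and 25.9 FPKM in the SYD libraries. All 3 SYD libraries stood above all control and model libraries, and SYD library 3, the lowest of its group for the other 9 genes, was the highest for Loxl1. Lox (chromosome 18, 45967343 to 46041477, minus strand) was at 27.0, 5.59, and 17.7 FPKM in the control, 6.94, 9.40, and 7.76 FPKM in the model, and 20.9, 21.8, and 5.41 FPKM in the SYD libraries. The model libraries lay close together, while the control and SYD groups each had 1 library below all of them. Loxl2 (chromosome 15, 44683880 to 44773067, plus strand) was at 26.5, 2.39, and 14.7 FPKM in the control, 6.38, 27.3, and 3.52 FPKM in the model, and 24.4, 40.6, and 7.99 FPKM in the SYD libraries. Loxl3 (chromosome 4, 115540685 to 115557466, plus strand) was at 22.9, 3.67, and 11.7 FPKM in the control and 16.6, 12.7, and 9.44 FPKM in the SYD libraries. In the model libraries Loxl3 was at 7.66 and 10.7 FPKM and, with 0 reads, at 0 in library 3. The groups overlapped for Lox, Loxl2, and Loxl3.

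**Figure D1:**
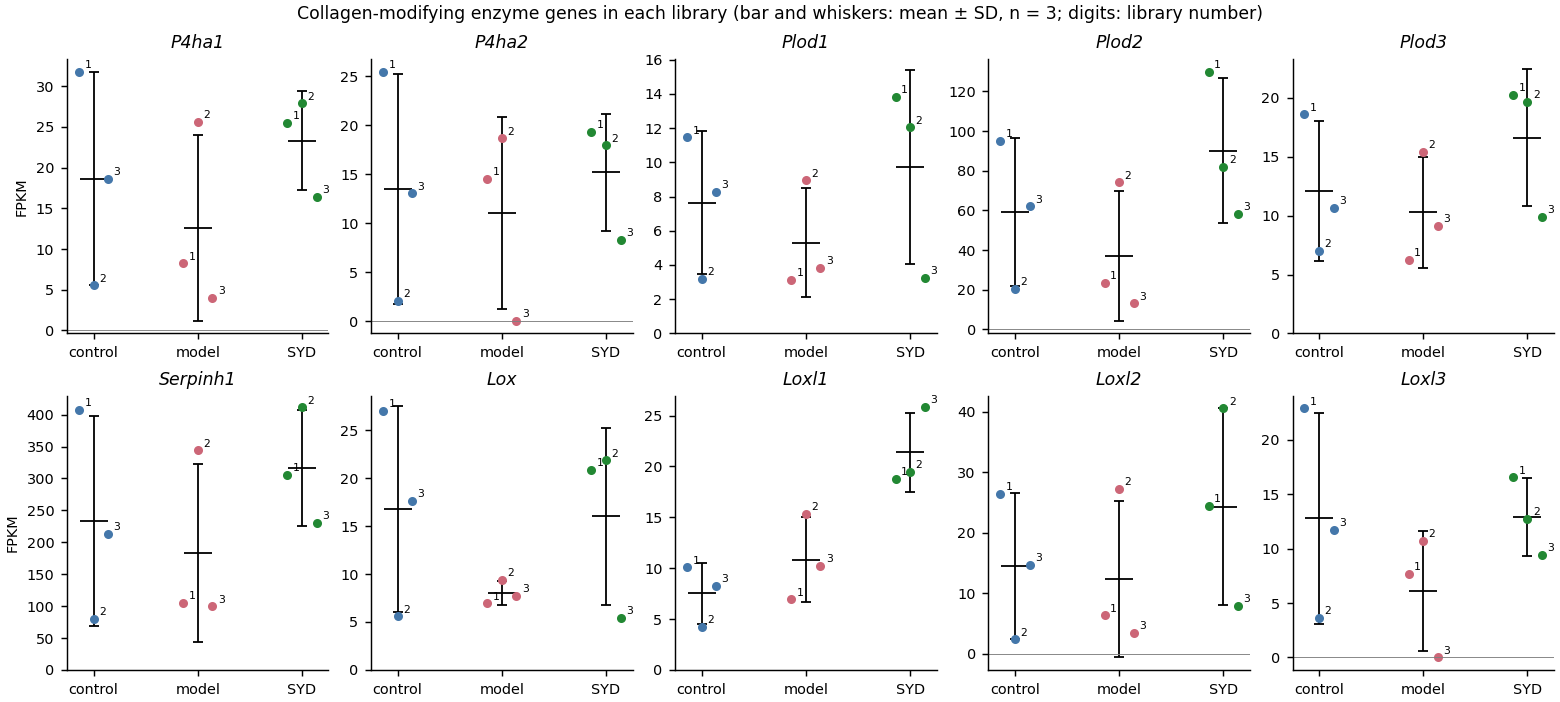
FPKM of the 10 genes (vertical axis, linear scale, 1 panel per gene) in the control, model, and SYD groups, with 1 point per library, its number beside it, and the mean ± SD (n = 3) as bar and whiskers. Loxl1 is the gene whose 3 SYD points (18.8 to 25.9 FPKM) lie above all 6 others.

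The 10 genes put the 3 control libraries in one order, but not the model or SYD libraries. Control library 1 was the highest and control library 2 the lowest of its group for 10 of 10 genes, which held for 32.3% and 39.4% of all tested genes. Model library 2 was the highest of its group for 10 of 10 genes (39.6% of all tested genes), while the lowest was library 1 for 4 genes and library 3 for 6. SYD library 3 was the lowest of its group for 9 of 10 genes (42.5% of all tested genes), while the highest was library 1 for 5 genes, library 2 for 4, and library 3 for 1. The ratio of the highest to the lowest control library ran from 2.37 for one gene to 12.3 for another, with a median of 4.95. Over the 9 libraries, the pairwise Pearson r of log2(FPKM + 1) among the 10 genes had a median of 0.824 over 45 pairs, highest for Plod2 and P4ha1 (0.972) and lowest for Lox and Loxl1 (0.235). These values share libraries, depth, and tissue makeup and are a description. Plod2 had an r of 0.940 and P4ha1 of 0.902 with the summed osteoblast and osteocyte markers. Col1a1 alone gave 4426 of the 5992 FPKM of that sum in control library 1 and 6597 of 10520 FPKM in SYD library 1. With the chondrocyte sum, Lox had an r of 0.762 and Loxl1 of -0.27. Col2a1 gave 8323 of the 11157 FPKM of the chondrocyte sum in control library 1. With the osteoclast sum, r was 0.874 for Plod2, 0.830 for Loxl1, 0.816 for P4ha1, and 0.797 for Serpinh1. Loxl1 had an r of 0.820 with the fibroblast and synovium sum, of which Col3a1 gave 1363 of 1809 FPKM in SYD library 2. With the erythroid sum, r was below 0 for all 10 genes, from -0.80 for Loxl2 to -0.46 for Lox. With the sum of 7 neutrophil markers, r was also below 0 for all 10, from -0.65 for Plod3 to -0.20 for Loxl3. With the mitochondrial share of reads, r was below 0 for every gene but Loxl1 (0.23). The part of these cell types and of the mitochondrial share in the levels was not tested.

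The depth behind these values differed between libraries. A gene of the 10 had 194 to 25215 reads in a control library, 0 to 18747 in a model library, and 111 to 24091 in a SYD library. Of the 30 model values, 8 rested on under 100 reads, 5 of them in model library 1 and 3 in model library 3.

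The comparison of the model with the control group asks whether the operation changed these enzymes. None of the 10 genes was a differentially expressed gene (DEG) by the study's criteria (unadjusted p under 0.05, and a log2 fold change beyond 1 in either direction), where 14.7% of the 13898 tested genes were. The test was limma on log2(FPKM + 1), so fold changes of low genes are understated. The log2 fold change was below 0 for 9 of 10 genes, with a median of -0.51 against -0.23 over all tested genes. Loxl3 had the lowest value (-1.27, SE 1.08, 95% interval -3.89 to 1.35), and its fit included the library with 0 reads. Plod2 was at -0.77 (SE 0.79), Lox at -0.75 (SE 0.55), P4ha1 at -0.59 (SE 0.81), and Serpinh1 at -0.32 (SE 0.75), while Loxl1 was the 1 gene above 0, at 0.48 (SE 0.42). No 95% interval excluded 0, and adjusted p-values in limma ran from 0.513 to 0.927. Without control library 2, Lox became a DEG (log2 fold change -1.35), where 1042 of all tested genes were DEGs below 0. Without control library 1, Loxl2, Plod3, P4ha2, and Serpinh1 turned to 0.42, 0.14, 0.06, and 0.23. Without control library 3 Loxl2 turned to 0.02, without model library 1 Plod3 to 0.08, and without model library 3 Loxl2 and P4ha2 to 0.35 and 0.74. No gene separated the 2 groups without overlap, where 8.65% of tested genes were higher and 20% lower in all model libraries.

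The comparison of the SYD with the model group asks what SYD changed after the operation. The log2 fold change was above 0 for 10 of 10 genes, with a median of 1.05 against 0.22 over all tested genes. None of the 10 was a DEG, where 4.15% of tested genes were. Over all tested genes limma gave 0 with an adjusted p under 0.05 and 731 with an unadjusted p under 0.05, and on the recovered reads limma with voom gave 1113 of the latter. Plod2 was at 1.54 (SE 0.65, 95% interval -0.02 to 3.11) and Loxl1 at 0.96 (SE 0.35, 95% interval 0.12 to 1.81). Loxl1 was the 1 gene whose interval excluded 0, with an unadjusted p of 0.0310 in limma and an adjusted p of 0.723. Loxl3 was at 1.55 (SE 0.94), P4ha2 at 1.16 (SE 1.13), P4ha1 at 1.15 (SE 0.63), Loxl2 at 1.11 (SE 0.84), and Serpinh1 at 1.00 (SE 0.55). Lox at 0.72, Plod1 at 0.68, and Plod3 at 0.66 were the lowest, and the adjusted p-values of the 10 genes in limma ran from 0.723 to 0.752. Loxl1 was the 1 gene with all SYD libraries above all model libraries, which held for 7.89% of tested genes. The counts hung on single libraries. Without model library 2, whose mitochondrial share was the lowest of its group, 5 of 10 genes were DEGs (Loxl1, Loxl2, P4ha1, Plod2, and Serpinh1), among 2495 of all tested genes. Without SYD library 3, Lox was the 1 DEG of the 10 genes (1.32), where 461 of all tested genes were DEGs above 0. Without model library 3, P4ha2 turned to -0.19. The smallest adjusted p of any of the 10 genes without 1 library was 0.106. Beside these values, the osteoblast and osteocyte sums (7808 to 10520 FPKM in SYD, 1262 to 7481 in model libraries) and the sums of 6 osteoclast markers (2006 to 2681 against 450 to 1788) did not overlap, with 3 of the 6 osteoclast markers and 0 of the 8 osteoblast and osteocyte markers higher without overlap. Their part in the SYD against model values was not tested.

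The comparison of the SYD with the control group shares its libraries with both comparisons above. Loxl1 rose, from 7.54 ± 2.98 FPKM (SD, n = 3) to 21.4 ± 3.92 FPKM (SD, n = 3), and was the 1 DEG of the 10 genes. DEGs were 16.5% of the tested genes in either direction and 7.25% when higher in SYD. The log2 fold change of Loxl1 was 1.44 (SE 0.31, 95% interval 0.68 to 2.21), with an adjusted p of 0.0318 in limma, and 7.75% of tested genes were higher with an adjusted p under 0.05. Loxl1 remained a DEG without any 1 of the 6 libraries (log2 fold change 1.13 to 1.67), but the adjusted p in limma was then 0.0524 to 0.102 and under 0.05 in 0 of 6 fits. It was 0.0954 with all 9 libraries in one fit, and ran from 0.0179 to 0.979 over the 9 alternatives that kept all libraries. Converted to TPM, which counts the mitochondrial reads and moved the median of all tested genes by -1.31, Loxl1 was at 0.03 and no DEG, or 1.34 above that median. The other 9 genes did not pass the test, with log2 fold changes from -0.04 for Lox to 0.90 for Loxl2 (SE 0.92). The median of the 10 genes was 0.55 against 0 over all tested genes, and 9 of 10 were above 0. Without control library 2, the lowest of its group, 4 genes turned below 0 beside Lox: Loxl3 (-0.36), P4ha2 (-0.33), Plod1 (-0.20), and P4ha1 (-0.10). Plod1 turned to -0.08 without SYD library 1, and Lox turned to 0.41, 0.12, and 0.57 without control library 1, control library 3, and SYD library 3. Loxl1 was the 1 gene with all SYD above all control libraries, as were 20.3% of tested genes. Beside it, the summed FPKM of 6 osteoclast markers was 2006 to 2681 in SYD against 615 to 1063 in control libraries, that of 9 fibroblast and synovium markers 426 to 1809 against 73.9 to 273, and that of 6 endothelial markers 84.7 to 120 against 36.5 to 47.7. The osteoblast and osteocyte sums given above did not overlap either. Taken singly, 4 of 6 osteoclast and 4 of 9 fibroblast and synovium markers were higher without overlap, where 20.3% of tested genes were. So were 3 of 6 endothelial and 2 of 8 osteoblast and osteocyte markers. The sum of 6 B cell markers was lower, at 14.0 to 46.1 FPKM in SYD against 243 to 312 in control libraries, with 6 of 6 markers below all control values. Their part in the Loxl1 result was not tested. In the test across the 3 groups, 0 of 10 genes had an adjusted p under 0.05 in limma, where 2.32% of tested genes did, and Loxl1 was at an adjusted p of 0.127.

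**Figure D2:**
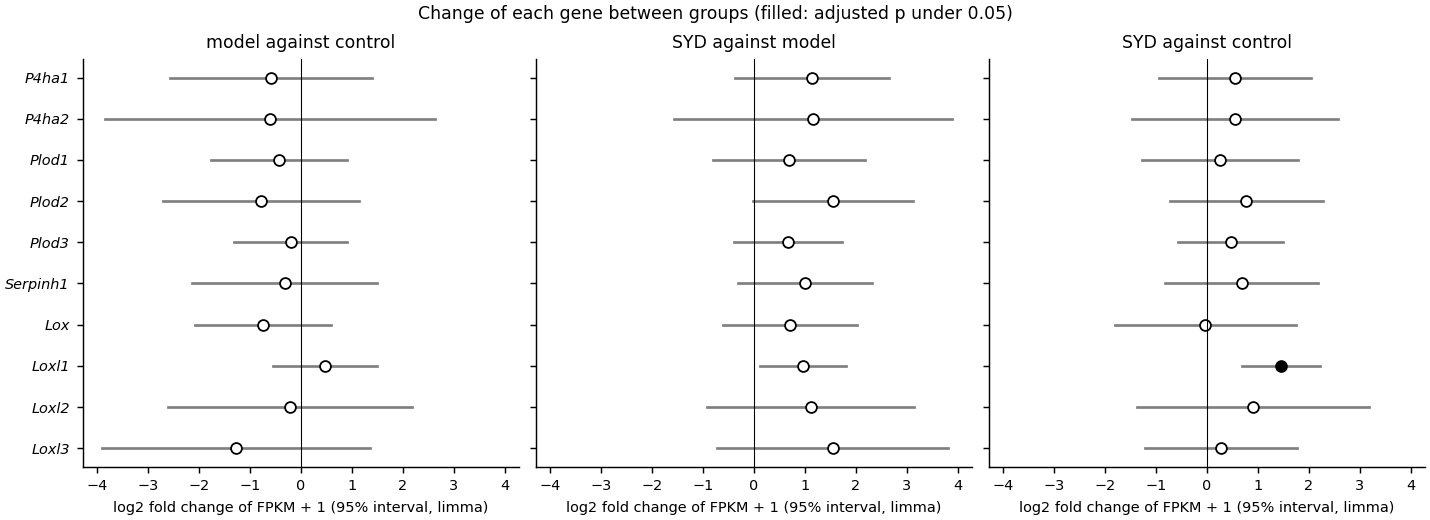
Log2 fold change of the 10 genes in the 3 comparisons (horizontal axis, log2 of FPKM + 1), 1 panel each, with lines for the 95% interval from limma, a vertical line at 0, and a filled point for an adjusted p under 0.05. All 10 points lie above 0 for SYD against model, and Loxl1 (1.44) has an interval clear of 0 for SYD against control.

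The makeup of each enzyme family within a library does not depend on how libraries were scaled to each other. In the lysyl oxidase family, here with the fifth member Loxl4, Lox gave 24.6%, 30.5%, and 25.6% of the summed FPKM in control libraries 1, 2, and 3, 23.6%, 13.7%, and 30.6% in the model, and 23.1%, 21.3%, and 10.5% in the SYD libraries. Loxl4 gave 21.2%, 13.1%, and 24.2% in the control, 5.17%, 8.79%, and 15.0% in the model, and 10.6%, 7.84%, and 5.39% in the SYD libraries. The shares of Lox and Loxl4 were lower in all SYD than in all control libraries, by 8.59 and 11.6 percentage points. Each difference had an exact permutation p of 0.1, two-sided, which is the smallest that 3 against 3 libraries allow, and the adjusted p over the 33 share comparisons was 0.917. Loxl1 gave 9.19%, 23.2%, and 11.96% of the family in the control, 23.6%, 22.3%, and 40.5% in the model, and 20.8%, 19.0%, and 50.3% in the SYD libraries, and the groups overlapped. Loxl1 had the largest share of the 5 genes in model library 3 and SYD library 3.

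Plod2 gave 66.6% to 76.6% of the lysyl hydroxylase FPKM in the control, 50.2% to 75.3% in the model, and 72.1% to 81.6% in the SYD libraries. P4ha1 gave 52.9%, 64.3%, and 56.5% of the prolyl 4-hydroxylase alpha subunit FPKM in the control, 36.3%, 54.9%, and 59.3% in the model, and 51.9%, 55.7%, and 64.9% in the SYD libraries. Of the 33 share comparisons, 2 had no overlap, those of Lox and Loxl4 between SYD and control.

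**Figure D3:**
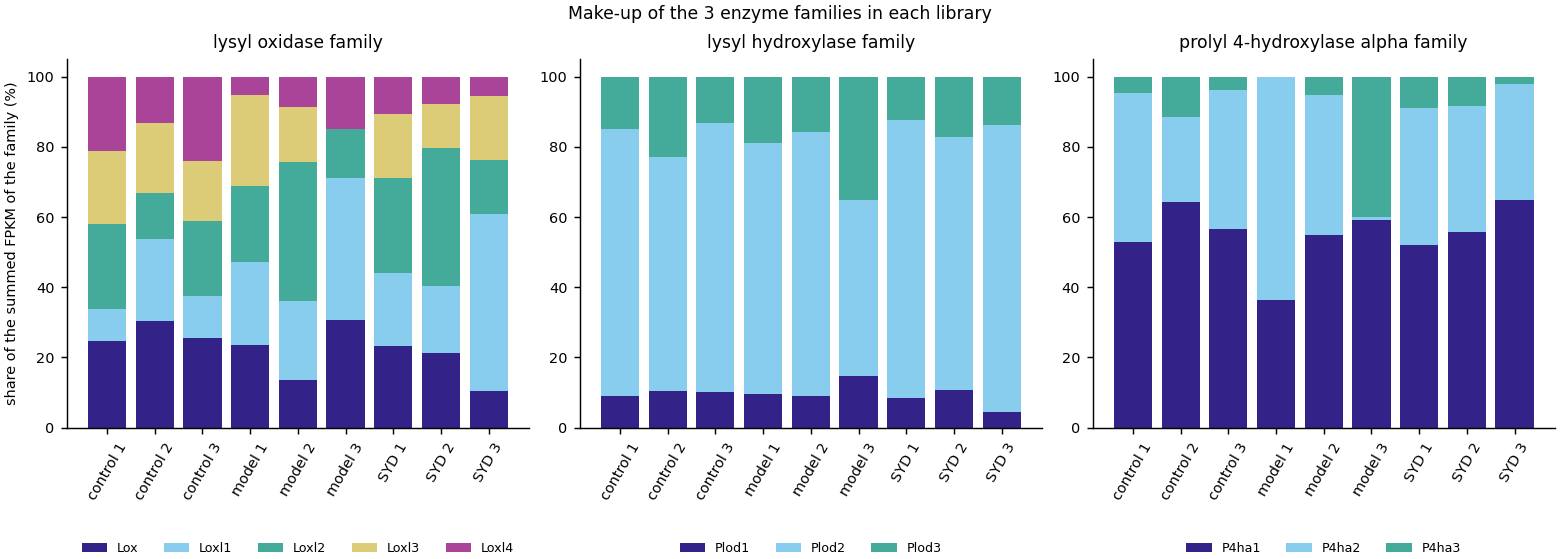
Share of each gene in the summed FPKM of its family (vertical axis, percent) as stacked bars in each of the 9 libraries, in 1 panel for each of the 3 families. Lox and Loxl4 take smaller shares in the SYD than in the control libraries, and Plod2 takes the largest lysyl hydroxylase share in every library.

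The enzymes were next set against their substrate, as FPKM per 1000 FPKM of 11 fibrillar collagen genes in the same library, a ratio chosen after the data had been seen. Fibrillar collagen came to 16151, 3512, and 10122 FPKM in control libraries 1, 2, and 3, to 2607, 8926, and 1425 FPKM in the model, and to 12053, 11413, and 6659 FPKM in the SYD libraries. The low libraries were those with low enzyme levels. The 10 genes summed to 41.9, 38.3, and 37.3 per 1000 in the control, 72.4, 61.5, and 106 in the model, and 49.4, 58.3, and 56.4 in the SYD libraries. The means were 39.2 ± 2.39, 80.0 ± 23.3, and 54.7 ± 4.69 (SD, n = 3), and no pair of groups overlapped. Serpinh1 made up most of this sum, and without it SYD was at 0.745 times the model, with overlap. Relative to fibrillar collagen, the model was at 2.04 times the control, SYD at 0.683 times the model, and SYD at 1.40 times the control. Over all tested genes the median of the same ratio in the model was 2.29 times the control, in SYD 0.296 times the model, and in SYD 0.742 times the control.

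By gene, Serpinh1 was at 25.2, 22.9, and 21.0 per 1000 in the control, 40.3, 38.5, and 70.0 in the model, and 25.3, 36.0, and 34.6 in the SYD libraries. P4ha1 was at 1.97, 1.58, and 1.84 in the control, 3.17, 2.87, and 2.80 in the model, and 2.12, 2.45, and 2.46 in the SYD libraries. These were the 2 genes of the 10 that were ordered control, SYD, model with no overlap, as 0.756% of tested genes were. Plod2 was at 5.90, 5.80, and 6.13 in the control, 9.02, 8.31, and 9.17 in the model, and 10.8, 7.18, and 8.74 in the SYD libraries, and so overlapped between SYD and model. In all, 6 of 10 genes were higher per collagen in all model than in all control libraries (Loxl1, Loxl2, Plod1, Plod2, P4ha1, and Serpinh1), where 6.88% of tested genes were. SYD libraries were lower than all model libraries for 3 of 10 (Plod3, P4ha1, and Serpinh1), where 11.6% of tested genes were. They were higher than all control libraries for 4 of 10 (Loxl1, Plod2, P4ha1, and Serpinh1), where 7.5% were. As the libraries low in collagen were also low in these enzymes, the shares over all tested genes are not a like-for-like measure.

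The ratio leaned on the cartilage collagen. Col2a1, the chain of type II collagen, gave 51.5%, 9.92%, and 44.1% of the fibrillar collagen FPKM in the control, 23.2%, 0.437%, and 3.94% in the model, and 5.05%, 3.77%, and 0.637% in the SYD libraries. With Col2a1 left out of the denominator, the sum of the 10 genes in the model was 1.36 times the control and in SYD 0.865 times the control, and both pairs overlapped. With the type I collagen genes Col1a1 and Col1a2 alone as the denominator, these values were 1.39 and 0.870, again with overlap. SYD stayed below the model, at 0.635 and 0.626 times, with no overlap in the first and overlap in the second. The counts by gene above were not repeated with these denominators.

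**Figure D4:**
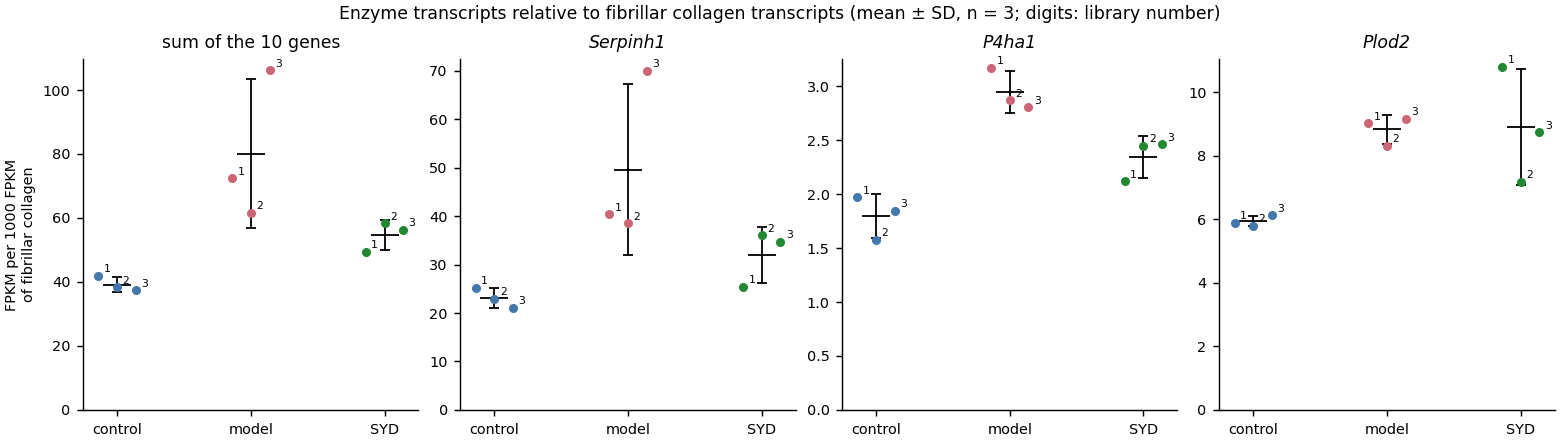
Enzyme FPKM per 1000 FPKM of fibrillar collagen (vertical axis) in the control, model, and SYD libraries, for the sum of the 10 genes, Serpinh1, P4ha1, and Plod2, with 1 point per library and the mean ± SD (n = 3) as bar and whiskers. The summed ratio is 37.3 to 41.9 in control, 61.5 to 106 in model, and 49.4 to 58.3 in SYD libraries.

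The ER partners of these enzymes were described from a list of 18 genes, all tested. In model against control 0 of 18 were DEGs, where 14.7% of tested genes were, and the median log2 fold change was -0.33 against -0.23 over all tested genes. In SYD against model 3 of 18 were DEGs above 0, where 3.62% of tested genes were, and 17 of 18 were above 0 with a median of 0.93 against 0.22 over all tested genes. The 3 DEGs were Fkbp10 (1.15, SE 0.44), a prolyl isomerase that works with Plod2, P3h3 (1.35, SE 0.51), of the prolyl 3-hydroxylase family, and Pdia6 (1.14, SE 0.44), a protein disulfide isomerase, each with an adjusted p of 0.723 in limma, so that none passed the adjusted test. Pdia6 was at 19.1, 34.0, and 9.90 FPKM in the model and 41.9, 45.6, and 39.9 FPKM in the SYD libraries, without overlap. In SYD against control 15 of 18 were above 0, with a median of 0.47 against 0 over all tested genes. Fkbp7, an ER prolyl isomerase, was the 1 DEG of the 18 (1.30, SE 0.33, adjusted p = 0.0492 in limma), where 7.25% of tested genes were DEGs above 0. The beta subunit P4hb was at 0.27 (SE 0.30) and the cyclophilin Ppib at 0.50 (SE 0.17, adjusted p = 0.105 in limma), and neither was a DEG in any comparison.

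Of the 13 genes of procollagen export and processing, 12 were tested. Bmp1, the proteinase that cuts the C-propeptide and also activates Lox, rose from 22.4 ± 8.12 FPKM (SD, n = 3) in the control to 68.5 ± 15.8 FPKM (SD, n = 3) in the SYD group. In limma this came to 1.61 on the log2 scale (SE 0.32, adjusted p = 0.0268), and its enhancer Pcolce rose by 1.51 (SE 0.39, adjusted p = 0.0482). These 2 of 12 were the DEGs of the list there, against 7.25% of tested genes. Both had all SYD above all control libraries, as did Sar1b and Adamts2 of this list and 20.3% of tested genes. Sar1b passed the adjusted test too (0.68, SE 0.14, adjusted p = 0.0270 in limma) but fell short of the fold change for a DEG. The related Pcolce2 was at -0.55 (SE 1.44). No gene of this list was a DEG in model against control or in SYD against model, where 14.7% and 4.15% of tested genes were.

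Among the 11 fibrillar collagen genes, 3 were DEGs below 0 in model against control, where 11.2% of tested genes were. These cartilage collagens were Col2a1 (-4.40, SE 1.53), Col11a1 (-2.31, SE 0.95), and Col11a2 (-2.37, SE 0.94), with adjusted p-values of 0.193, 0.260, and 0.244 in limma, none of which passed. Col1a1 was at -0.92 (SE 0.99) and Col1a2 at -0.82 (SE 0.87). In SYD against the model 11 of 11 were above 0 with a median of 1.53 against 0.22 over all tested genes. Col11a2 (1.55) and Col27a1 (1.47) were DEGs there, both with an adjusted p of 0.723 in limma. That makes 2 of 11, where 3.62% of tested genes were DEGs above 0. In SYD against the control 3 of 11 were DEGs above 0, against 7.25% of tested genes: Col5a3 (2.62, adjusted p = 0.0452 in limma), Col5a2 (1.55, adjusted p = 0.0581), and Col3a1 (3.47, adjusted p = 0.133). Chondrocyte, osteoblast, and fibroblast marker sums moved as given above. They hold some of these collagens themselves: Col2a1 and Col11a2 in the first, Col1a1 in the second, and Col3a1 in the third. The sums thus repeat part of these values, and the part of cell types in them was not tested.

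Of the 12 elastic fibre genes and lysyl oxidase partners, 11 were tested, and 2 were DEGs above 0 in SYD against control, where 7.25% of tested genes were. These were Postn, the matricellular protein periostin that brings Bmp1 to its substrates (3.14, SE 0.86, adjusted p = 0.0584 in limma), and Mfap5, a microfibril protein (2.03, SE 0.44, adjusted p = 0.0326 in limma). Mfap5 was low, at 0.414 to 1.70 FPKM in the control and 3.27 to 9.93 FPKM in the SYD libraries. Fn1 (1.18, SE 1.09) and Efemp2 (0.92, SE 0.45) did not pass. Of 6 genes that supply copper and ascorbate, 5 were tested and 0 were DEGs in the 3 comparisons. Of all tested genes, 14.7% were DEGs in model against control, 4.15% in SYD against model, and 16.5% in SYD against control. The copper chaperone Atox1 was at 0.93 (SE 0.29) and the copper importer Slc31a1 at -0.91 (SE 0.53) in model against control, and the dehydroascorbate reductase Gsto1 was at 0.64 (SE 0.18) in SYD against control.

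The hypoxia list held 13 genes, all tested. Vegfa, a growth factor for vessels, was at 8.66, 2.84, and 6.32 FPKM in the control, 14.1, 16.1, and 22.8 FPKM in the model, and 43.3, 14.5, and 24.1 FPKM in the SYD libraries. All model libraries were above all control libraries, and Vegfa was a DEG (1.501, SE 0.41, adjusted p = 0.122 in limma). Epas1, which encodes HIF-2 alpha, was also a DEG in that comparison (1.25, SE 0.40, adjusted p = 0.166 in limma), which makes 2 of 13 against 3.55% of tested genes. In SYD against control Vegfa (1.996), Epas1 (1.20), and Ndrg1 (1.83) were higher, with adjusted p-values of 0.0460, 0.0466, and 0.0404 in limma, which makes 3 of 13 against 7.25% of tested genes as DEGs above 0. The endothelial marker sums given above did not overlap between SYD and control libraries either, and their part in these values was not tested. The glycolytic genes Ldha (0.05, SE 0.18) and Pgk1 (-0.39, SE 0.17) did not pass there. In SYD against model 0 of 13 were DEGs, where 4.15% of tested genes were. P4ha1, P4ha2, and Plod2, whose promoters were searched above for hypoxia letters, were not DEGs in any of these comparisons.

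The genes outside the 10 whose levels over the 9 libraries were most like Serpinh1 were Pomgnt1 (Pearson r 0.964), Wls (0.963), Tspan6 (0.959), Rcn3 (0.955), and Rrbp1 (0.955), on log2(FPKM + 1). Those most like Lox were Lpar4 (0.964), Smoc2 (0.948), Cacna2d1 (0.941), Pcolce2 (0.938), and Ugdh (0.938). Lpar4 and Cacna2d1 had means of 0.587 and 0.615 FPKM, near the filter.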

How the data were processed

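RNA sequencing of 9 rat libraries was used, 3 per group, with groups from the sample labels. The authors deposited FPKM for each gene in each library, and 0 library columns were left out here. The submitters' processing notes list HISAT2 2.0.5 and hg38, although the gene identifiers are those of rat. The counting tool, annotation, and FPKM normalization are not given in the sources used here. The library size implied by the FPKM values was 3636667 in model library 1 and 39425819 in control library 3, which had 18815977 and 18107232 recovered reads. The FPKM was thus not scaled to all recovered reads. Dividing FPKM by the step of 1 read gave read counts, with a tolerance of 0.1 read for a whole value (100% of values came out whole), which gave the depth. Depth and reads cover counting error only.

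Genes with a mean of at least 0.5 FPKM were tested with limma 3.58.1 in R 4.3.3 (lmFit and eBayes with trend) on log2(FPKM + 1), two-sided, on the 6 libraries of the 2 groups compared. P-values were adjusted by Benjamini-Hochberg over all 13898 genes. Family shares were compared with exact permutation tests (scipy 1.17.1), and tables were made with pandas 2.3.3 in Python 3.11.15. The limma step was tested on simulated data. The alternatives were another pseudocount and filter, TPM, quantile normalization, scaling to reads outside mitochondrial genes, all 9 libraries in one fit, voom on reads, a replicate block, and leaving out each library.

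All 10 genes are named, with the 3 most abundant genes and every DEG of each pathway list and the 5 genes most like Serpinh1 and Lox. The members and lists were chosen with earlier results of these data known.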

Additional observations from a re-analysis of the deposited data

How the results depend on the processing

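The labels do not say whether a replicate number marks a shared animal, litter or day. Same-numbered deviations correlated at -0.267 to 0.194, and 1 of 9 libraries correlated best with its own number. With 3 libraries per group that differ in depth, this check cannot exclude pairing. With a replicate block, 0 genes had an adjusted p under 0.05 in model against control and 0 in SYD against control, against 360 and 2407 without it. The genes of the 10 called in SYD against model with the block numbered 2 (Loxl2 and Plod2), where 451 of all tested genes were DEGs above 0.

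Of the 10 genes, 1 was called in SYD against model with a pseudocount of 0.1, where 525 of all tested genes were DEGs above 0. A count of 1 also came with a mean of at least 1 FPKM (474 of all tested genes), scaling to reads outside mitochondrial genes (534), and voom (995). Under TPM, 7 were called in model against control and 0 in SYD against control. The test across 3 groups called 5 of the 10 under TPM, where 53.6% of all tested genes were called. With voom it called 1 of the 10, where 7.64% were. All DEGs numbered 10445 (TPM) and 3275 (voom) against 2046 in model against control, 1220 (all 9 libraries in one fit) and 1078 (voom) against 577 in SYD against model, and 6029 (TPM) and 3391 (voom) against 2289 in SYD against control. Adjusted calls in model against control were 1532 without a filter, 105 with a mean of at least 1 FPKM, 9673 under TPM, 113 after quantile normalization, and 634 with all 9 libraries in one fit. In SYD against model 2 genes passed without a filter, and in SYD against control 253 with all 9 libraries in one fit. Under TPM the median log2 fold change of all genes was -2.60 in model against control, 1.22 in SYD against model, and -1.31 in SYD against control, against -0.23, 0.22, and 0.

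TPM turned Loxl1 to -2.33 in model against control and, in SYD against control, Loxl2 to -0.48, Loxl3 to -1.16, Plod1 to -1.12, Plod2 to -0.76, Plod3 to -0.99, P4ha1 to -0.91, P4ha2 to -0.82, and Serpinh1 to -0.86. There, 9 of 10 stood above the median of all genes. Voom turned Loxl2 to 0.42, Plod1 to 0.17, Plod3 to 0.24, and P4ha2 to 0.023 in model against control, and Lox to 0.20 in SYD against control.

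With only the 10 genes in the denominator, the Loxl1 share differed by -0.0023 points between SYD and model, and that of P4ha1 by 1.87 between model and control and -2.88 between SYD and model. With reads not divided by length, P4ha2 differed by 1.54 and -1.08. The enzyme to collagen ratio of SYD to control was 0.865 without Col2a1 and 0.870 with type I collagen only, both chosen after seeing the data. The cause was not tested.

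Leaving out 1 library gave 1309 to 3344 DEGs in model against control, 0 to 1 of them among the 10 genes, and 0 to 2621 adjusted calls. It gave 315 to 2495 DEGs in SYD against model, with 0 to 5 of the 10 genes, and 209 to 3526 adjusted calls in SYD against control. The test across 3 groups called 0 to 1 of the 10 genes. That 1 came without model library 2, where 18.7% of all tested genes were called. In model against control, Loxl2 ran from -1.08 to 0.42, Plod3 from -0.51 to 0.14, P4ha2 from -1.49 to 0.74, and Serpinh1 from -0.94 to 0.23. P4ha2 ran from -0.19 to 1.92 in SYD against model. In SYD against control, Lox ran from -0.63 to 0.57, Loxl3 from -0.36 to 0.82, Plod1 from -0.20 to 0.82, P4ha1 from -0.10 to 1.07, and P4ha2 from -0.33 to 1.22. Share differences between model and control ran from -8.28 to 0.192 points for Lox, -1.74 to 11.2 for Loxl2, -11.5 to 1.49 for Loxl3, -0.616 to 2.20 for Plod1, -12.3 to 0.295 for Plod2, and -14.9 to 16.5 for P4ha2. Between SYD and model they ran from -8.91 to 7.04 for Loxl1, -3.77 to 9.61 for Loxl2, -4.42 to 8.58 for Loxl3, and -15.8 to 15.6 for P4ha2. Between SYD and control they ran from -4.35 to 0.497 for Plod3, -4.12 to 2.76 for P4ha1, and -4.94 to 4.20 for P4ha2.

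Depth limits the model group most, where 8 of 30 values rest on under 100 reads, and 3 libraries per group cannot give an exact p under 0.1.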
